A study of Mus musculus with 3 samples.

Results

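At 200 places in the hepatoblast genome, a FOXA2 peak lay beside an HNF4A peak without touching it. These adjacent but separate peaks are the subject here. They were selected by their measured positions: each is a FOXA2 peak that overlaps no HNF4A peak by even 1 bp, whose nearest HNF4A peak has its centre 1 kb away or less, and that lies more than 10 kb from any region called in input chromatin. The 200 members made up 2.14% of the 9338 FOXA2 peaks (95% Wilson interval 1.87 to 2.46%). They were 3.35% of the 5979 FOXA2 peaks that overlapped no HNF4A peak and lay clear of input. Each member was taken with its nearest HNF4A peak, and the 200 pairs used 200 different HNF4A peaks, 1.71% of the 11703 in that list.

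HNF4A is a nuclear receptor that binds DNA as a homodimer and maintains the gene program of hepatocytes. FOXA2 is a forkhead factor that can engage nucleosomal DNA and acts in liver specification together with FOXA1. Both occupy enhancers and promoters of liver genes, often at the same element, and elements of one gene can also lie side by side. A pair of separate peaks is a second arrangement of the listed peaks, with a FOXA2 peak a short way from an HNF4A peak. It does not show that FOXA2 was absent at the HNF4A peak, which overlapped another FOXA2 peak in 57 of 200 pairs.

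The data are 3 chromatin immunoprecipitation sequencing libraries, or 2 immunoprecipitations and their input: HNF4A, FOXA2 and chromatin to which no antibody was added. All came from wild-type C57BL/6 embryos at embryonic day 14.5. Livers were pooled, and the cells had been enriched magnetically for DLK1, a surface protein of hepatoblasts. The files hold peak positions and scores only, so the purity of the cells could not be checked against marker expression, and pooling leaves no measure of variation between embryos. There was 1 library of each kind. No comparison below has a replicate, no test was made, and every interval covers counting error over peaks only. Neighbouring peaks are not independent, so the intervals are too narrow where peaks cluster. Genes and DNA sequence at these positions were not analysed here, because the positions are in build mm9 and the annotation at hand was of another build.

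The limits of the selection cut through a continuous range of distances. The 3 members just inside 1 kb had centres 989.5, 979.5 and 979 bp from HNF4A, with FOXA2 scores of 13, 13 and 29. The 3 peaks just outside lay 1000.5, 1002.5 and 1005 bp away and had FOXA2 scores of 12, 30 and 19. Of all FOXA2 peaks that overlapped no HNF4A peak, 488 lay within 10 kb of input and 5979 lay clear of it. Input removed few of the candidates here: 3 of 203 peaks failed that condition (1.48%, interval 0.504 to 4.25%). These lay on chromosomes Y, X and 1, at 257, 415 and 9436 bp from input, with FOXA2 scores of 16, 15 and 11. The member closest to input, on chromosome 13 at 14049548 to 14049884, was 24218 bp away.

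Centres within the pairs were a median of 725.5 bp apart (exact binomial interval 683.5 to 755.5 bp; range 346.5 to 989.5 bp). The bases between the facing edges numbered a median of 300 (250 to 339), from 1 to 641. Both ends of the spacing range were set by the selection. Peaks that do not overlap cannot have centres closer than the sum of their half-widths, which was a median of 396 bp in these pairs, and none farther than 1 kb was taken. Counted per 100 bp of centre distance, 6 members lay at 300 to 400 bp and 22 at 400 to 500 bp. Between 500 and 1000 bp the successive counts were 30, 32, 48, 37 and 25. Single FOXA2 peaks beyond the limit continued at 16 to 31 per 100 bp from 1 to 2 kb.

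**Figure D1:**
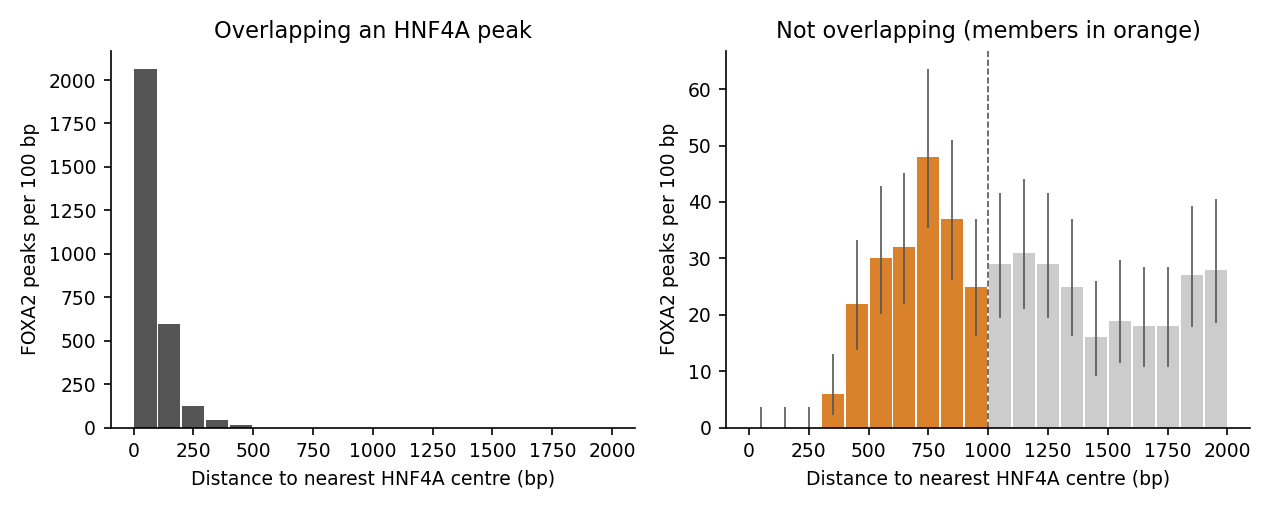
FOXA2 peaks more than 10 kb from input, counted per 100 bp of distance (bp) to the nearest HNF4A centre, for peaks that overlap HNF4A (left) and those that do not (right; vertical lines are exact 95% Poisson intervals and the dashed line marks 1 kb). Overlapping peaks fell from 2065 under 100 bp to 15 at 400 to 500 bp, whereas the members, in orange, lay from 300 bp up and reached 48 at 700 to 800 bp.

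Small gaps were about as frequent as wider ones up to 499 bp. From 0 bp up, the successive counts per 100 bp were 32, 32, 35, 45 and 37 members. The gap was 50 bp or less in 13 members (6.5%; 3.84 to 10.8%) and 100 bp or less in 32 (16%; 11.6 to 21.7%). On the other side of the limit, 17 of 2849 FOXA2 peaks that overlapped HNF4A clear of input did so by 1 to 50 bp, 0.597% of them. The boundary between separate and overlapping peaks therefore rested on few peaks. The closest pair was on chromosome 9, where a FOXA2 peak at 70088521 to 70088808 ended 1 bp before an HNF4A peak at 70088810 to 70089542. Next came a gap of 8 bp on chromosome 1, between HNF4A at 59257823 to 59258296 and FOXA2 at 59258305 to 59258639, with a score of 25 in each list. The remaining 3 of the 5 smallest gaps were 13, 16 and 18 bp, on chromosomes 4, 1 and 10.

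**Figure D2:**
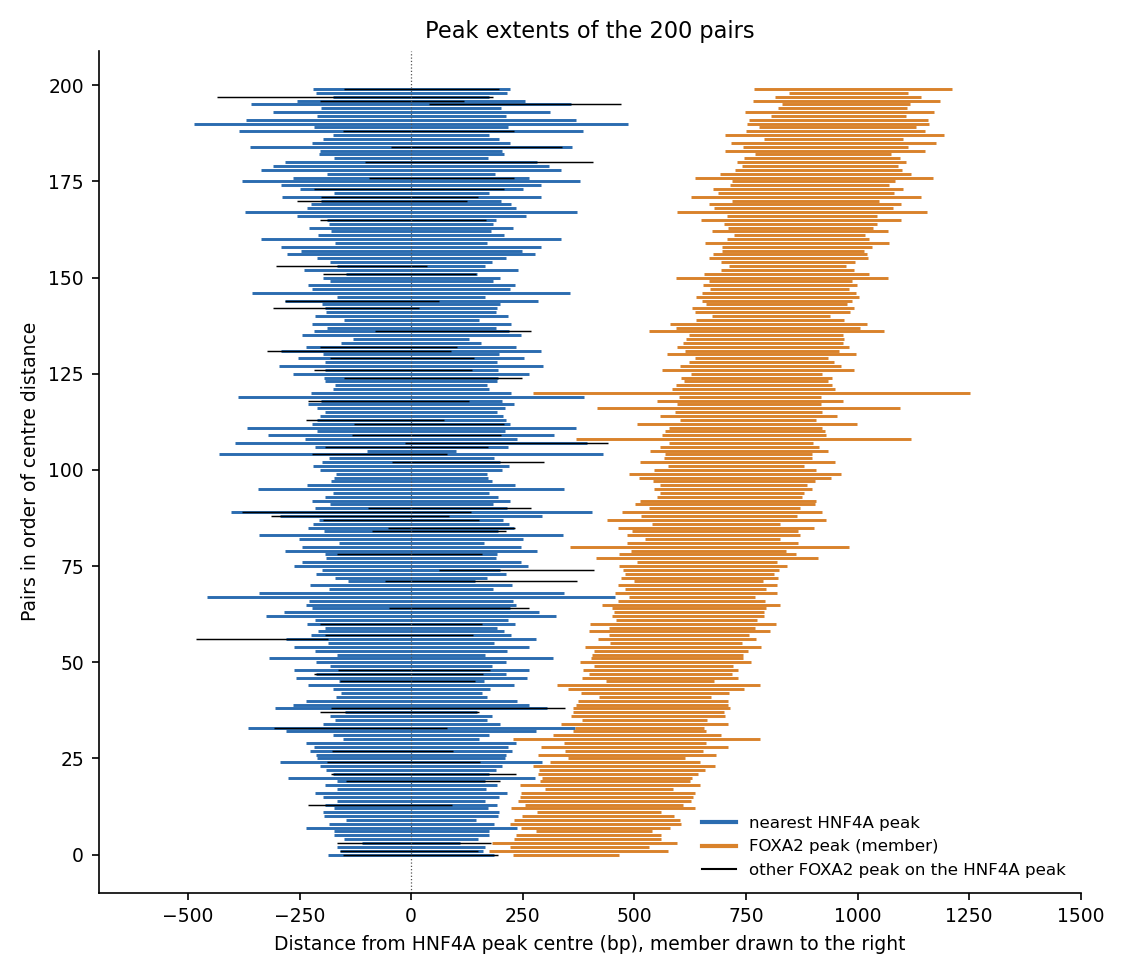
Extents of the peaks in all 200 pairs, in bp from the HNF4A centre, with the member drawn to the right and pairs in order of centre distance. HNF4A peaks (blue) and members (orange) are separated by 1 to 641 bp, and thin black lines show the other FOXA2 peak that lay on the HNF4A peak in 57 pairs.

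The members were 351.5 bp wide in the median, with quartiles of 325.8 and 399 bp, and their HNF4A peaks 426.5 bp, with quartiles of 369.5 and 509.2 bp. The medians of the complete lists were 367 and 430 bp. Width entered the selection through overlap and is given as a description. The widest member spanned 980 bp and the widest HNF4A peak 974 bp, so no pair held a peak over 1 kb. The member was at the lower coordinate in 92 pairs and at the higher in 108 (54%; 47.1 to 60.8%), which is a position on the chromosome and not an orientation relative to a gene.

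The deposited score of a peak, a whole number with no stated definition, was compared within its own list. The median score of members was nearer to that of other single FOXA2 peaks than to that of peaks overlapping HNF4A. It was 16 (15 to 17; range 11 to 54). Single peaks with HNF4A over 1 to 5 kb away had a median of 15 (14 to 16), and those over 5 kb away 14 (14 to 14). FOXA2 peaks that overlapped HNF4A had a median of 19 (19 to 20) and reached 165. At 22 or above, the upper quartile of the list, stood 50 members (25%; 19.5 to 31.4%), against 25.6% of all FOXA2 peaks and 43.1% of overlapping ones. The share was 23.6% of single peaks over 1 to 5 kb away. Of those over 5 kb away it was 18.4%, below the members' interval. At the lowest score of 11 stood 27 members (13.5%; 9.45 to 18.9%), against 16.5% of the list. Both shares of members are near the background, so neither sets the members apart from FOXA2 peaks in general.

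**Figure D3:**
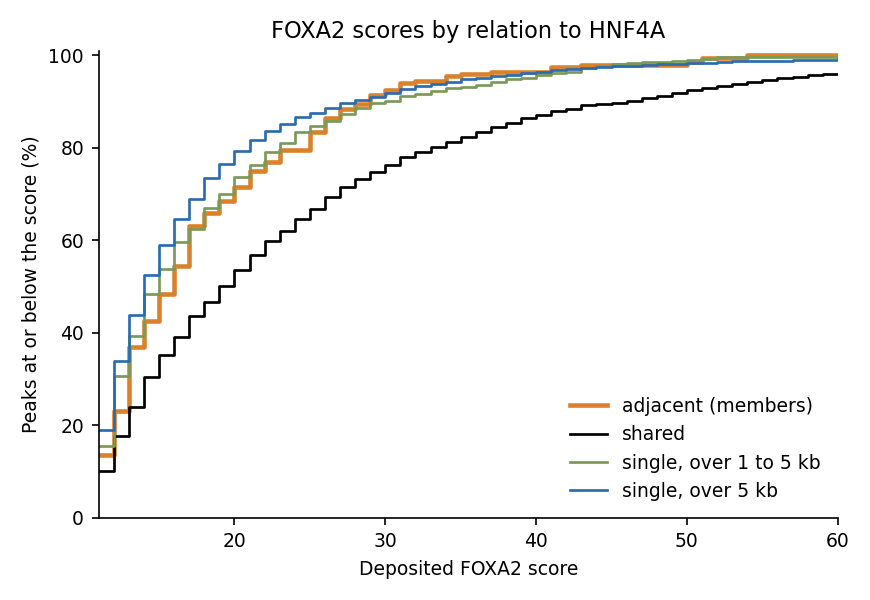
Cumulative percentage of FOXA2 peaks against the deposited FOXA2 score (drawn from 11 to 60) for members, peaks overlapping HNF4A and single peaks at 2 distances. At a score of 12 the members had reached 23%, overlapping peaks 17.8%, and single peaks 30.7% (over 1 to 5 kb) and 34.0% (over 5 kb). At 20 these values were 71.5%, 53.6%, 73.6% and 79.4%.

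The HNF4A peaks of the pairs had scores much like the rest of their list. Their median was 24 (21 to 27; range 16 to 120), against 23 for the list. At 33 or above, the upper quartile, stood 58 of them (29%; 23.2 to 35.6%), and 25.6% of all HNF4A peaks did. At the lowest score of 16 stood 25 (12.5%; 8.61 to 17.8%), against 10.1% of all. Both intervals include the share in the list.

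The 2 scores of a pair showed little relation. The Spearman correlation across the 200 pairs was -0.02, a description over pairs drawn from the same 2 libraries with many tied scores. Both scores were at or above their list's median in 65 pairs, FOXA2 alone in 50, HNF4A alone in 42 and neither in 43. Scores equal to a median were counted as at or above it, so these counts need not be equal. Spacing and score had correlations of 0.02 for FOXA2 and -0.02 for HNF4A. Members with centres up to 500 bp from HNF4A had a median FOXA2 score of 15 (13 to 18; n = 29 pairs). From there to 750 bp the median was 15 (14 to 17; n = 83 pairs), and beyond it 16 (14 to 17; n = 88 pairs).

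**Figure D4:**
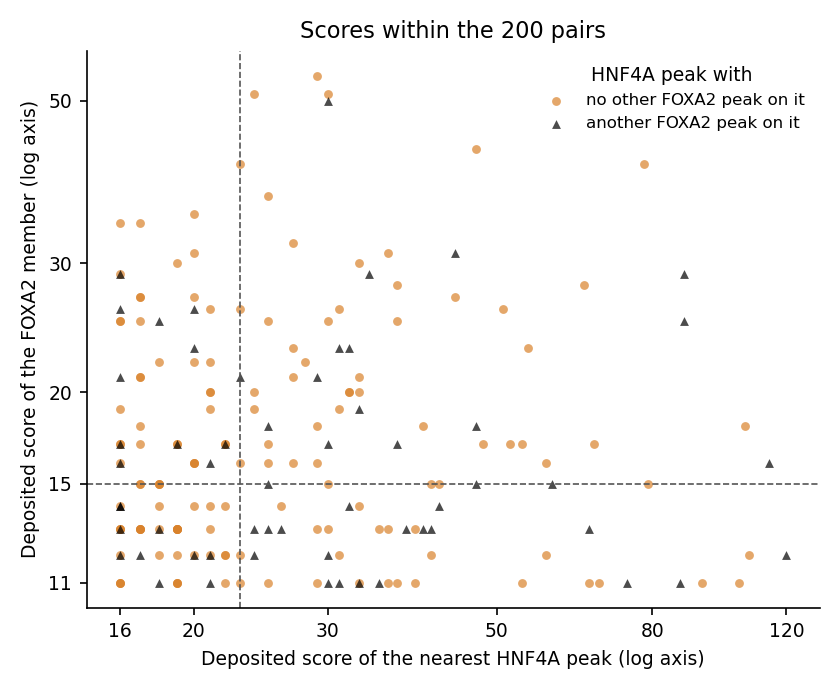
Deposited score of each member against that of its nearest HNF4A peak, both on log axes, with dashed lines at the list medians of 15 and 23 and triangles for the 57 HNF4A peaks that carry another FOXA2 peak. The points lie on all 4 sides of the crossing lines, with 65 pairs in the upper right and 43 in the lower left, and triangles lie among circles throughout.

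Both peaks were in the upper quartile of their list in 14 pairs (7%; 4.22 to 11.4%). Taken singly, 25% of members and 29% of their HNF4A peaks were, against 25.6% of each complete list. No share was computed for unrelated peaks, so the 14 pairs are not read as an excess. Pairs were ranked by the lower of the 2 score percentiles, so that both had to be high. First was a pair on chromosome 3, with FOXA2 at 115496328 to 115496686 (score 41) and HNF4A at 115495562 to 115495875 (score 78), their centres 788.5 bp apart. Next came chromosome 4, with FOXA2 at 149789652 to 149790008 (score 43) and HNF4A at 149788772 to 149789196 (score 47), 846 bp apart. Neither of these HNF4A peaks overlapped a FOXA2 peak, so both factors were well above their medians at neighbouring places without a common peak. The third, on chromosome 11, had FOXA2 at 5398354 to 5398732 (score 31) and HNF4A at 5399179 to 5399745 (score 44). A second FOXA2 peak of score 27 lay on that HNF4A peak. The remaining 7 of the top 10 lay on chromosomes 4, 6, 11, 12, 16 and 19, with 2 on chromosome 19, FOXA2 scores of 25 to 29 and HNF4A scores of 37 to 88.

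Regions on chromosome 18 were left out of naming, among them a member of FOXA2 score 51 beside HNF4A of score 30. On the other chromosomes the 5 members ranked highest by FOXA2 score had HNF4A neighbours of 24 to 78. The highest, on chromosome 14 at 66006904 to 66007230, had a score of 54, and its HNF4A peak at 66007710 to 66008168 had 29. On chromosome 1 at 13645694 to 13646030 a member of score 51 lay 16 bp from HNF4A, whose score was 24. Farther along the same chromosome, at 196189643 to 196189952, a member of score 50 was beside an HNF4A peak of score 30 that carried another FOXA2 peak of score 23. The next 2 in that order, with FOXA2 scores of 43 and 41, were the first 2 pairs of the ranking by both scores. A member on chromosome 7 also had a score of 41 and came after them by its lower HNF4A score of 23.

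The 5 highest HNF4A peaks of the pairs had members with scores of 11 to 18. HNF4A on chromosome 19 at 38265932 to 38266336 had a score of 120 and a member of score 12, centres 883.5 bp apart, while another FOXA2 peak, of score 47, overlapped it. On chromosome 14 at 41973994 to 41974384 the HNF4A score was 114, the member's 16 and that of the overlapping FOXA2 peak 31. The next 3 had HNF4A scores of 107, 106 and 104 and members of 12, 18 and 11, and no FOXA2 peak overlapped them. At the first of these the gap was 223 bp, on chromosome 10 between FOXA2 at 79793717 to 79794276 and HNF4A at 79794500 to 79795245. The second was on chromosome 1 with HNF4A at 127590950 to 127591332, and the third on chromosome 19 with HNF4A at 37338447 to 37338910.

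In 57 of the 200 pairs (28.5%; 22.7 to 35.1%) the HNF4A peak also overlapped another FOXA2 peak, so that a joint site had a further FOXA2 peak at its side. Across the whole list 24.4% of HNF4A peaks overlapped a FOXA2 peak, a share inside that interval. At the other distances examined the share ran from 24.1 to 28.4%. For single FOXA2 peaks over 1 to 2 kb from HNF4A the nearest HNF4A peak was shared in 27.5% (22.2 to 33.5%; n = 240 peaks), and for those over 100 kb away in 25.5% (23.5 to 27.6%; n = 1773 peaks). The intervals at all 8 distances overlap one another, so a difference was not detectable with these numbers of peaks. Beyond 1 kb, 1 HNF4A peak could be nearest to several FOXA2 peaks and was counted for each. The 1773 peaks over 100 kb away had 1097 different nearest HNF4A peaks, so those intervals are too narrow. No HNF4A peak carried 2 other FOXA2 peaks, 0 of 200, which allows a share of up to 1.5%. The share of all HNF4A peaks carrying 2 was not counted, so this 0 does not set the pairs apart. In the complete lists 2871 FOXA2 peaks overlapped HNF4A, and 2858 HNF4A peaks overlapped FOXA2.

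**Figure D5:**
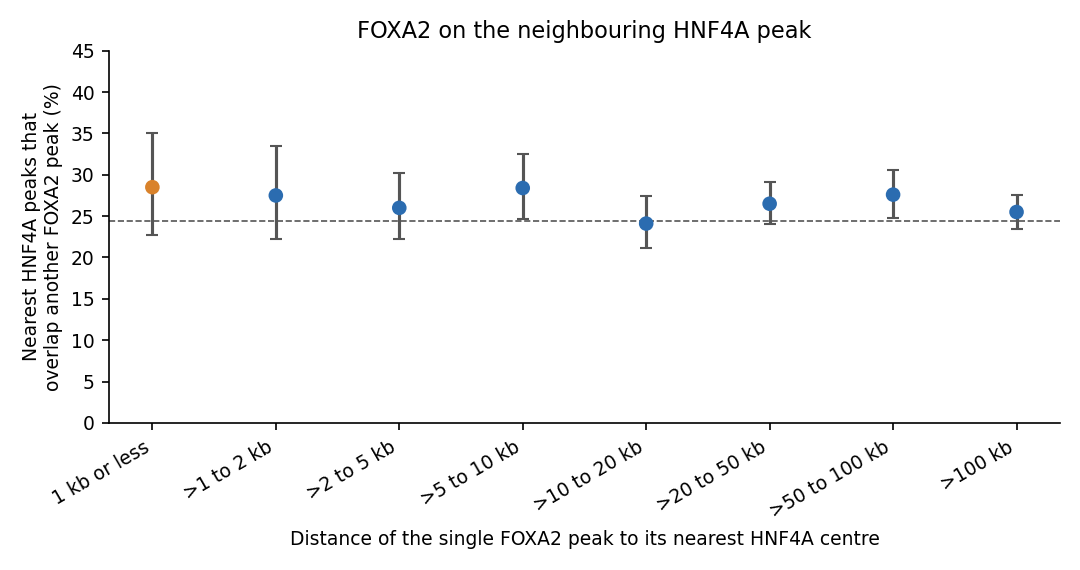
Percentage of single FOXA2 peaks whose nearest HNF4A peak overlaps another FOXA2 peak, by distance to that HNF4A centre. Points are shares, bars 95% Wilson intervals and the dashed line the 24.4% of all HNF4A peaks. The members (orange, 28.5%) stand among values of 24.1 to 28.4% at the other distances.

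In these 57 groups of 3 peaks the FOXA2 peak on HNF4A more often scored higher than lower, compared with the separate one. Its median score was 21 (17 to 25), and that of the member beside it 15 (13 to 17). The member scored lower in 36 groups (63.2%; 50.2 to 74.5%), equal in 4 and higher in 17. Within a group, the member's score minus that of the FOXA2 peak on HNF4A had a median of -6. Its interval, -10 to 0, reaches no difference. Of the FOXA2 peaks on HNF4A 27 were in the upper quartile of the FOXA2 list, and of the members 12. The same order holds in the list as a whole, where overlapping FOXA2 peaks score above single ones. The FOXA2 peak on HNF4A was centred a median of 50.5 bp from the HNF4A centre (29 to 83 bp), and within 100 bp in 40 of 57. It was shifted toward the member in 24 groups and away from it or level in the others. The 2 FOXA2 centres lay a median of 712.5 bp apart (619.5 to 806 bp), and their scores had a Spearman correlation of -0.07 over 57 groups.

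HNF4A peaks of these groups had a median score of 29 (22 to 32), and the 143 HNF4A peaks with the separate FOXA2 neighbour alone 22 (21 to 25). In the complete list the medians were 27 for shared and 22 for HNF4A-only peaks. At the lowest score stood 9 of the 57 (15.8%, interval 8.54 to 27.4%), against 6.79% of all shared HNF4A peaks. For the 143 and for all HNF4A-only peaks that share was 11.2%. Spacing differed little, with medians of 733.5 bp (664.5 to 777 bp) and 725 bp (668 to 757.5 bp). In each of the 143 pairs the member was also the FOXA2 peak nearest to the HNF4A peak, and in none of the 57 groups was it. The split nearly fixed the result for the 57 groups. Their FOXA2 peaks on HNF4A were centred at most 334 bp from it, and their members at least 346.5 bp.

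Neighbours of the pairs were counted. Except for clusters of 5 or more sites, this was not done for other FOXA2 peaks, so isolation cannot be called particular to members. In 75 (37.5%; 31.1 to 44.4%) no other peak of either factor had its centre within 10 kb of the midpoint of the pair. Another FOXA2 peak lay within 10 kb in 89 pairs, and another HNF4A peak in 82. Within 2 kb, 126 pairs (63%) had no other peak, 62 had another FOXA2 peak, including those on the HNF4A peak, and 23 had another HNF4A peak. For a wider view, peaks that overlapped were counted as 1 site and sites were joined over gaps of up to 12.5 kb. The pair formed a group of its own in 88 cases (44%; 37.3 to 50.9%), and 19 members (9.50%; 6.17 to 14.4%) were in clusters of 5 or more sites. Of all FOXA2 peaks 8.87% were in such clusters, although a member brings at least 2 sites by its definition. These 19 members were spread over 19 of the 222 clusters, 1 in each. The one with the most sites, 11, was on chromosome 3 and contained a member at 10298616 to 10298986 (score 23), named after its values were seen.

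In 4 members HNF4A peaks lay within 1 kb on opposite sides, so FOXA2 stood between 2 HNF4A peaks; these too were named after their values were seen. The FOXA2 peaks were on chromosome 2 at 32019978 to 32020348 (score 25), chromosome 16 at 58663145 to 58663482 (score 20), chromosome 10 at 93611344 to 93611741 (score 16) and chromosome 4 at 11074023 to 11074436 (score 16). The nearer HNF4A peak had the lowest score of its list, 16, in 3 of them, and 33 on chromosome 16. Of all HNF4A peaks 10.1% had that lowest score. The member was not always the only FOXA2 peak there. On chromosome 4 another, of score 21, lay on the nearer HNF4A peak. On chromosome 16 the next FOXA2 centre was 830.5 bp from the member and the second HNF4A centre 832.5 bp. The reverse arrangement, 2 members sharing their nearest HNF4A peak, did not occur.

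Members were found on every autosome and once on X. Chromosome 10 had the largest number, 18 of its 491 FOXA2 peaks (3.67%; 2.33 to 5.72%), an interval above the 2.14% of the list. The largest share was on chromosome 16, 11 of 294 (3.74%; 2.10 to 6.57%), an interval that includes 2.14%. Among autosomes the smallest share was on chromosome 14, 5 of 406 (1.23%; 0.527 to 2.85%). These chromosomes were singled out after the counts were seen. On X 1 of 215 peaks was a member (0.465%, interval 0.0822 to 2.59%), and that interval also includes 2.14%.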

How the data were processed

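Per the labels' protocols, chromatin came from DLK1-enriched cells of pooled embryonic livers. For each library the authors deposited a table without a header that gives chromosome, start, end and a whole-number score. Per the submitters' processing notes, positions refer to mm9. Not given in the sources used here are the aligner, the peak caller, its threshold and what the score measures. Library depth is unknown.

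Positions were read as 1-based with both ends included, the chr prefix was removed, and 1 closing FOXA2 line without a region was skipped. Distance to input was measured between edges and distance to HNF4A between centres. Percentiles give tied scores their mean rank. Medians carry exact binomial order-statistic intervals and shares Wilson intervals, both at 95%; a share of 0 carries the limit that 3 counts allow. The neighbour search was tested on simulated data. Computation used scipy 1.17.1, pandas 2.3.3 and numpy 2.4.6 under Python 3.11.15, and figures matplotlib 3.10.9.

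The members and the rules were chosen with earlier results of these data known. Regions named are the 10 pairs ranked by the lower percentile, the 5 highest members, the 5 highest HNF4A peaks, the 5 smallest gaps, and those at the limits; chromosome 18 was left out of naming. Motifs and gene annotation, also planned, were not analysed here.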

Additional observations from a re-analysis of the deposited data

How the results depend on the processing

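Each of 7 results was recomputed under 10 settings. Of the 70 values 57 stayed inside the interval of the reported value (for the number of members, within 1.5 times). Where low scores were removed, the share at the lowest score was taken at the lowest score left. It was 10.8% without the lowest scores and 9.88% from the median up, and is not comparable to the share at 11. With a centre limit of 500 bp there were 29 members, with a median spacing of 433.5 bp and a median gap of 69 bp. With 2 kb there were 440, at 1064 bp and 637 bp. With 1 kb measured between edges there were 314, at 851.8 bp and 435 bp. These follow from the limit itself. With only peaks at or above the median score of each list there were 81 members. Their median scores were then 21 for FOXA2 and 32 for HNF4A, and 21.0% of their HNF4A peaks overlapped another FOXA2 peak, against 21.6% of all HNF4A peaks so filtered. Overlaps of up to 50 bp counted as separate, other distances to input, removal of the lowest scores or of peaks over 1 kb, and starts counted from 0 moved none of the 7 results outside that range. No paired analysis was possible because there was 1 library of each kind. A FOXA2 or HNF4A peak below the unknown threshold of its list is missing here, so a pair can hold unlisted peaks.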

Other observations

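HNF4A peaks that overlapped no FOXA2 peak and had a FOXA2 centre within 1 kb, clear of input, numbered 238. For 145 of them the nearest FOXA2 peak was a member. For 92 (38.7%; 32.7 to 45%) it overlapped another HNF4A peak, so that a separate HNF4A peak stood beside a joint site; 30.7% of all FOXA2 peaks overlapped HNF4A. This was not tested, and both views contain many of the same regions.

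Peaks of the same factor were also counted side by side within 1 kb. That limit and the peak widths bound the spacing here as in the pairs, so like medians carry no further meaning. In the HNF4A list 314 neighbouring peaks had centres at most 1 kb apart, with a median of 707.8 bp (675 to 738.5 bp), and in the FOXA2 list 235, with a median of 668 bp (626 to 712.5 bp). The smallest gap between neighbours was 1 bp in both lists, as it was between members and HNF4A.

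The count of members was highest at 700 to 800 bp from HNF4A, 48 (exact Poisson interval 35.4 to 63.6). In bins moved by 50 bp it was highest at 750 to 850 bp, 45 (32.8 to 60.2), and single peaks at 1050 to 1150 bp numbered 33 (22.7 to 46.3). These intervals overlap, and the bins were chosen after the counts were seen.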
